A study of Mus musculus with 14 samples.

Results

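Axon guidance genes encode the secreted and membrane-bound cues that steer growing axons and the receptors on the axon that read them. The set described here held the 66 protein-coding mouse genes of the semaphorin classes Sema3 to Sema7, their plexin and neuropilin receptors, the ephrins and Eph receptors, the Slits and Robos, and netrin 1 with Dcc and the Unc5 receptors, out of 21900 protein-coding genes in the RefSeq gene table. Genes entered the set by symbol, and the set was chosen with earlier results of these data known. Each was represented by the strongest H3K4me3 peak summit within 2 kb of either end of the gene, ranked by the mean over the 13 libraries. Of the 66 genes, 60 had such a summit, all 60 passed the filter on low values, and of all 21900 genes 14272 had one, 14237 of them after the filter.

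The series measured H3K4me3, histone H3 trimethylated at lysine 4, in prefrontal cortex from C57BL/6J mice, all adult males of 10 to 12 weeks, by ChIP-seq, the sequencing of chromatin fragments pulled down with an antibody (the strain field of the labels reads C57BL/6). The SDS10 group (5 libraries) met an unfamiliar aggressive CD1 mouse briefly each day for 10 days of social defeat stress, and the SDS30 group (5 libraries) for 30 days. Between encounters these mice lived beside an aggressive CD1 mouse behind a perforated barrier, and behavioural tests were run in the last days of stress. Controls (3 libraries) lived in divided cages without an aggressor. Tissue was taken 24 h after the last session, and all libraries carried 1 batch label. Whether the libraries stem from different animals is not in the labels, and p-values measure only how these libraries vary among themselves. The tissue was bulk, so that fewer cells of a type and less of the mark per cell cannot be told apart.

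As background, H3K4me3 sits on the nucleosomes around the start sites of active and poised genes and is highest at promoters rich in CpG. Semaphorins signal through plexins, with neuropilins as co-receptors for the secreted class. Ephrins bind Eph receptor tyrosine kinases on touching cells and signal in both directions. Slits repel axons through Robo receptors, while netrin 1 attracts through Dcc and repels through Unc5 receptors. In the adult cortex many of these proteins remain at synapses, where they act on dendritic spines and on the placing of glutamate receptors.

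None of the 60 genes passed the test in any comparison of the groups. Values are normalised reads, the reads counted at a summit divided by 1 size factor per library. The width of the counting window is not given in the sources used here, so levels of different genes are compared only as reads per summit. The libraries held 4512817 to 10887911 reads over all 153207 summits, and the totals did not differ between groups beyond their spread (two-sided exact permutation p = 0.393 for SDS10 against control, 0.786 for SDS30 against control and 0.579 for SDS30 against SDS10). Behind the 780 values of the axon guidance genes lay 7 to 209 reads each, with a median of 77. SDS10 replicate 2 stood apart: it was the highest of the 13 libraries at 21 of the 60 genes, and its median deviation from the mean of all libraries was 0.29 on the log2 scale at these genes and 0.16 over all genes. SDS30 replicate 2 was the lowest at 14 of the 60 and deviated by -0.18 at these genes and by -0.16 over all genes. SDS10 replicate 2 held 5677624 reads and SDS30 replicate 2 held 4750679, both near the low end of the range. The shallowest library, SDS10 replicate 4, was the highest at 7 genes and the lowest at 7. The cell type marker lists had a summit at 10 of 10 genes of excitatory neurons, 7 of 10 of inhibitory neurons, 9 of 12 of oligodendrocytes, 8 of 10 of astrocytes, 4 of 10 of microglia, 9 of 10 of endothelial and mural cells and 9 of 10 of striatal neurons, and no marker passed the test. The summed level of the excitatory markers ran from 399 to 493 normalised reads in control, 366 to 638 in SDS10 and 351 to 624 in SDS30. The summed level of the microglial markers ran from 140 to 163 in control, 159 to 210 in SDS10 and 159 to 195 in SDS30, and all 4 with a summit had a positive fold change in both stressed groups. For the oligodendrocyte markers the ranges were 440 to 473, 371 to 445 and 378 to 518. The part of these lists in the results below was not tested.

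In control cortex the axon guidance genes carried less H3K4me3 at their strongest summit than most genes with a summit. Their median was 76.1 normalised reads with quartiles of 65.0 and 96.2, against 98.6 with quartiles of 68.0 and 118 over 14237 genes. Only 13 of the 60 were above the median of all genes. They had more summits near the gene, a median of 10 against 8. Receptors had a median of 82.4 (32 genes) and ligands one of 75.5 (28 genes), so the roles differed little beside the range from 20.05 to 124.

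**Figure D1:**
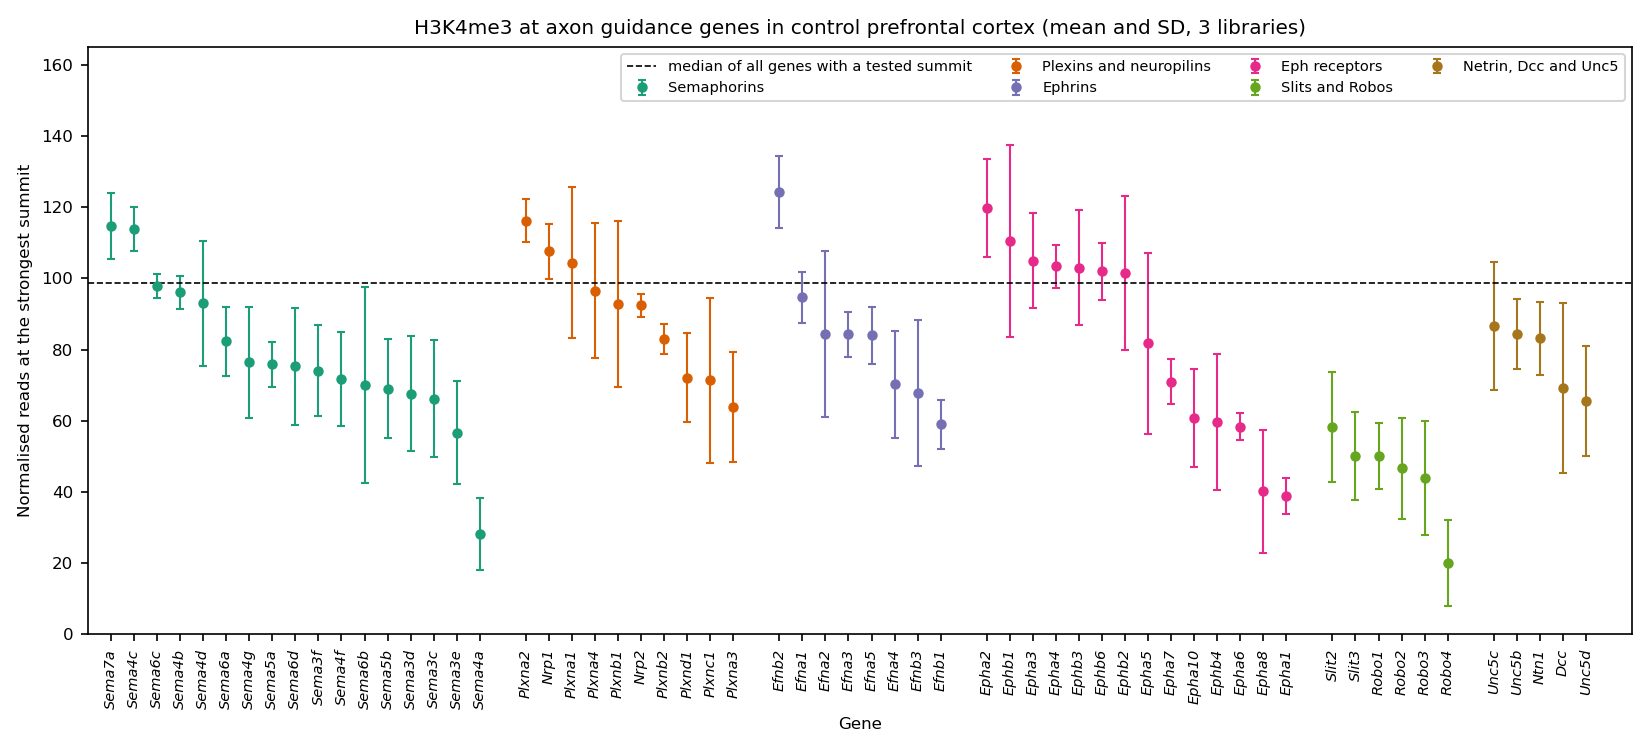
Mean H3K4me3 level in normalised reads (vertical axis) at the strongest summit of each of the 60 axon guidance genes (horizontal axis, grouped by family) over the 3 control libraries. Bars are the SD and the dashed line is the median of all genes with a tested summit, 98.6, with 13 of the 60 genes above it.

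Among the ligands, ephrin B2 (Efnb2), a membrane-anchored ephrin known from arterial vessels and from synapses, had the highest level of all, at 124 ± 10.1 in control (SD, n = 3). Its control libraries read 115, 122 and 135, its SDS10 libraries 157, 138, 143, 105 and 138 and its SDS30 libraries 143, 161, 134, 148 and 128. These ranges overlapped between all groups. The 8 ephrins had a median of 84.1. Efna5, which guides topographic maps, was close to it at 84.0 ± 8.01, and Efnb1 was the lowest at 59.0 ± 6.98. The 17 semaphorins with a summit had a median of 75.2. Sema7a, a semaphorin tied to the membrane by a lipid anchor that binds integrins and plexin C1, led them with 115 ± 9.25. Sema4a, known best from immune cells, was the lowest ligand at 28.2 ± 10.1, although its chosen summit lay at the 3' end of the gene. The 4 class 3 semaphorins, which are secreted, ranged from 56.7 to 74.1 and thus lay below the median of all 60 genes. Netrin 1 (Ntn1) stood at 83.2 ± 10.3.

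Among the receptors, Epha2 (119.7 ± 13.7) and Plxna2 (116 ± 6.12), a plexin for class 3 and class 6 semaphorins, were the highest. Epha2 and Efnb2 differed by less than their SDs, as did Plxna2 and Sema7a, so the order within the top 4 is not resolved. Plexins and neuropilins had a median of 92.6 (10 genes), the highest of the 6 families, followed by the Eph receptors at 91.6 (14 genes). Nrp1, the co-receptor that binds Sema3a, stood at 108 ± 7.70 and its partner Plxna4 at 96.6 ± 19.0. Within the Eph receptors the B class (median 102, 5 genes) was above the A class (71.0, 9 genes), with Epha4, a receptor for ephrins of both classes, at 103 ± 6.12. Epha1 (38.8 ± 5.05) and Epha8 (40.1 ± 17.4) were among the 4 lowest genes. Dcc, the attractive netrin receptor, read 69.2 ± 23.9, with the wide spread of its control libraries (46.1, 93.8 and 67.6).

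Slits and Robos had the lowest family median, 48.3 over 6 genes, and the levels of some of them depended on where the summit was looked for. Robo4, a receptor of vascular endothelium, was the lowest gene with a summit at 20.05 ± 12.1, and its control libraries read 26.6, 6.08 and 27.5. Robo2 read 46.6 ± 14.3 at the end of its longest form, but 82.5 ± 18.9 at another start listed in the RefSeq promoter table. Robo1 read 50.01 ± 9.28 at the gene end and 102 ± 16.2 near its listed start, deep inside the gene. Slit2, a secreted Slit, read 58.3 ± 15.5 within 2 kb of the gene and 86.9 ± 13.6 at a summit 259 bp past its listed start, farther into the gene. The value of 48.3 thus describes summits at the gene ends, and 3 of the 6 genes had a higher mean at a listed start inside the gene. Robo3, Robo4 and Slit3 read 43.9, 20.05 and 50.1 at both places, so the family rank was not shown to change.

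The 6 genes without a summit within 2 kb were Sema3a, Sema3b, Sema3g, Slit1, Unc5a and Plxnb3. Sema3a, the secreted semaphorin that collapses growth cones through Nrp1, had its strongest summit inside the gene, 2521 bp from the listed start, at 66.9 ± 11.1 in control, 70.2 ± 12.9 in SDS10 and 75.7 ± 17.9 in SDS30. Unc5a, a repulsive netrin receptor, read 72.2 ± 9.28, 74.7 ± 15.0 and 75.2 ± 9.64 in that order at a summit 412 bp past a listed start. Slit1, a Slit of the nervous system, read 52.0 ± 19.8, 55.1 ± 23.8 and 37.8 ± 15.6 within the gene. At all of these the means differed by about their SDs or less. Sema3b had a summit of only 13.1 ± 3.80 in the gene, and Sema3g and Plxnb3 had none in the gene or within 2 kb of it. Of the 52 genes with a summit and a known strand, 48 had it at the 5' end. The exceptions were Sema4a, Sema4c (beside Ankrd39), Efna1 (beside Slc50a1) and Epha6 (beside Arl6), whose summits lay at the 3' end. At their listed starts these 4 genes read 49.2 ± 11.8, 123 ± 19.6, 84.8 ± 23.9 and 55.6 ± 20.4 in control.

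For 56 of the 66 genes the RefSeq promoter table, on GRCm38.p6 (the same primary assembly as mm10), lists 300 bases around a start. Where several starts were listed, the one nearest the strongest summit within 2 kb of any of them was used. Without such a summit the first listed start was used. For genes with several starts the promoter was thus picked by the mark, and its distance to the summit is the smallest of those possible. The 250 bases upstream of the listed start are printed 5' to 3' on the strand of the gene with each CpG in capitals, for the highest gene (Efnb2), the lowest with a summit (Robo4), 1 without a summit (Sema3g), and the genes with the smallest unadjusted p for a gain or a loss in SDS10 or between the stressed groups (Plxnc1, Ephb2, Nrp2). Efnb2 lies at chr8:8661243-8661492 (minus strand), Robo4 at chr9:37401722-37401971 (plus strand), Sema3g at chr14:31217623-31217872 (plus strand), Plxnc1 at chr10:94944846-94945095 (minus strand), Ephb2 at chr4:136836013-136836262 (minus strand) and Nrp2 at chr1:62703067-62703316 (plus strand).
Efnb2: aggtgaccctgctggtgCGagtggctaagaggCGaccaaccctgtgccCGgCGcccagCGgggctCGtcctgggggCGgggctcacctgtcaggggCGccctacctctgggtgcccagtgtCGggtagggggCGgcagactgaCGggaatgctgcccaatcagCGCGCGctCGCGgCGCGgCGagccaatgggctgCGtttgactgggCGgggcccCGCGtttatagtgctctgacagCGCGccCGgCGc
Robo4: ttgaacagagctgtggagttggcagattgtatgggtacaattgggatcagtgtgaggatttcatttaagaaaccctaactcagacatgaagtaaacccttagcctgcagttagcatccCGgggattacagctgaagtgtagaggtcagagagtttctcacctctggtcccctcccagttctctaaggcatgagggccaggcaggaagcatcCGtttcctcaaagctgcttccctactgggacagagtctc
Sema3g: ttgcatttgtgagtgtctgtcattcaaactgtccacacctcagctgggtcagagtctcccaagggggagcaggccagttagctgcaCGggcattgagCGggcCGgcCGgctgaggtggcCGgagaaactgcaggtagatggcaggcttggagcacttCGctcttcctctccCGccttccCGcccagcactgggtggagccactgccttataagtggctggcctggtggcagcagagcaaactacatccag
Plxnc1: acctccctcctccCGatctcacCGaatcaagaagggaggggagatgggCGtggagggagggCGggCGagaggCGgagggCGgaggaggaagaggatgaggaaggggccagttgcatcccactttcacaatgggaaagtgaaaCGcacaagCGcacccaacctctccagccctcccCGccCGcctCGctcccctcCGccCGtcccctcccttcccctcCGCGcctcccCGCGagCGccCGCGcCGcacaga
Ephb2: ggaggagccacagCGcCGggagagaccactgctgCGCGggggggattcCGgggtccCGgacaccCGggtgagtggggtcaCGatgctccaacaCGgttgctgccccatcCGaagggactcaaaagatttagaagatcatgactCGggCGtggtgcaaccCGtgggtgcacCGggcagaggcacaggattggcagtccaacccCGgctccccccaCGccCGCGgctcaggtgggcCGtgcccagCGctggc
Nrp2: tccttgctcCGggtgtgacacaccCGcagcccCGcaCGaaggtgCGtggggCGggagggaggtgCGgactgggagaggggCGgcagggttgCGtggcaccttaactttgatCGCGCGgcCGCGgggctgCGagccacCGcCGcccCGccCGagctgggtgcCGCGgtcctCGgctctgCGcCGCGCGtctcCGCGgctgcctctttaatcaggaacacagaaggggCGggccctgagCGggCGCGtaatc
Efnb2 holds 27 CpGs in this stretch and Nrp2 32, while Robo4 holds 2 and Sema3g 8.

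Over the 56 promoters, GC content had a median of 64.8% against 57.0% over 17492 protein-coding genes, and the observed-to-expected CpG ratio one of 0.681 against 0.599. A ratio above 0.6 was found in 36 of the 56 (64.3%) and in 49.9% of all. A summit lay within 2 kb of the listed start in 53 of the 56 (94.6%) and in 65.2% of all. All 36 with a ratio above 0.6 had one (8527 of 8730 over all genes), with control levels from 40.1 to 124. Of the 20 at or below 0.6, 17 had one (2882 of 8762 over all genes), with levels from 20.05 to 119.7, and Sema3g, Sema4d and Plxnb3 had none. Epha2 reached its high level at a ratio of only 0.46, and Epha8 its low one at 1.06. Across the 53 genes with both values, Spearman's rank correlation between the ratio and the level was 0.275 and Pearson's r 0.351, and over 11409 genes they were 0.321 and 0.378, as a description. Counted as positive downstream of the listed start and negative upstream, the position of the strongest summit had a median of 170 bp (138 bp over all genes), and it was downstream in 40 of 53.

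Short motifs were searched on both strands of the 300 bases. The GC box GGGCGG was in 40 of 56 promoters (71.4%, against 47.7% of all 17492), and it can overlap CpG-rich sequence of any kind. TATAAA was in 2, Efnb2 and Slit2 (3.57% against 13.04%). CCAAT was in 17 (30.4% against 38.7%), the E-box CACGTG in 4 (7.14% against 7.91%) and the cAMP response element TGACGTCA in 1, Epha2 (1.79% against 2.37%). The consensus letters of the NRF1 site and of the glucocorticoid response element were in none of the 56 (1.36% and 0.440% of all).

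**Figure D2:**
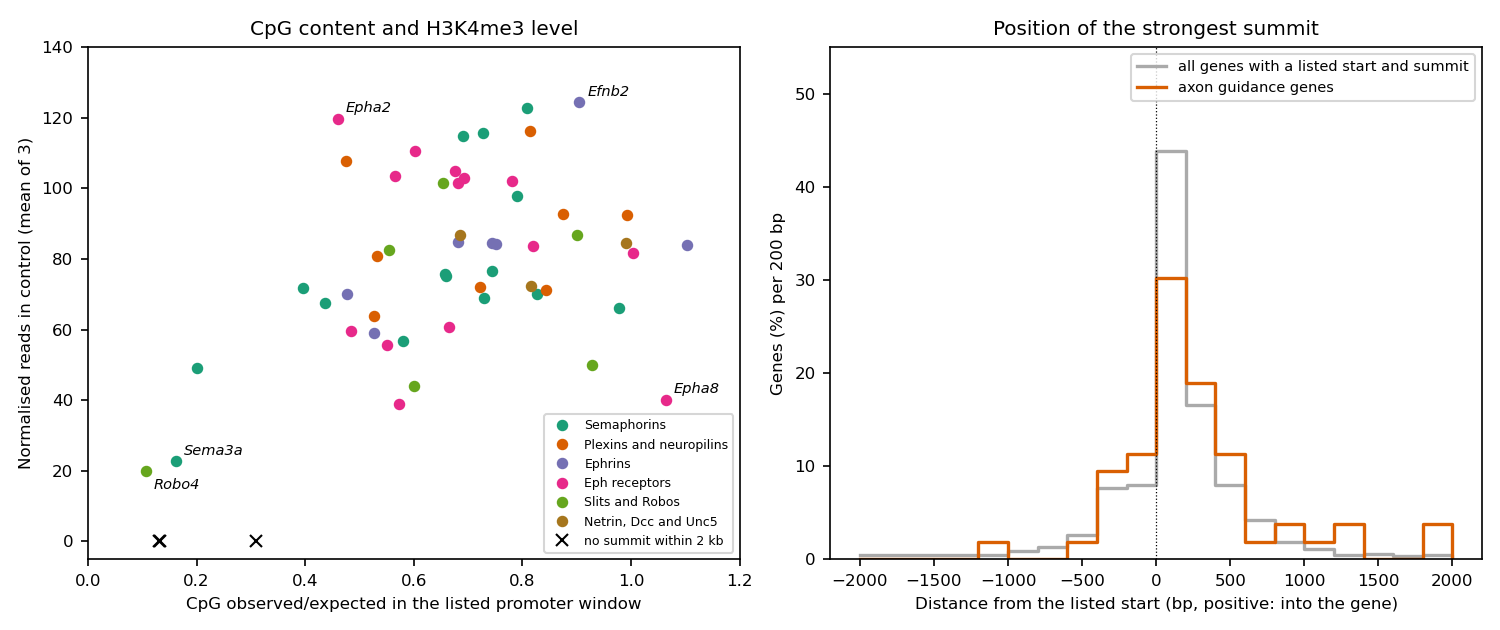
Left, observed-to-expected CpG ratio of the listed promoter (horizontal axis) against the control level in normalised reads at the strongest summit within 2 kb of the listed start (vertical axis, mean of 3 libraries), with crosses for the 3 genes without a summit. Right, share of genes per 200 bp by the distance of that summit from the listed start in bp, positive into the gene, with a signed median of 170 bp for the axon guidance genes and 138 bp for all genes.

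The first comparison sets 10 days of defeat against no defeat. No axon guidance gene passed the limma test at an adjusted p of 0.05 (lowest adjusted p = 0.9999), where 0.0% of all 152270 tested summits passed. At an unadjusted p of 0.05, which 3.21% of all summits passed, limma had 4891 summits, edgeR 4588 and DESeq2 5409, and none of the 3 tools made a call. Of the 60 genes, 1 was higher (Plxnc1) and 2 were lower (Ephb2, Efnb3) at that level, against 1.87% and 1.03% of all genes. Fold changes were above 0 at 32 genes and below 0 at 28, where 53.5% of all genes were above and 46.5% below. Their median was 0.02 on the log2(value + 1) scale beside 0.01 over all genes. It was -0.04 without SDS10 replicate 2, with 35 of the 60 lower. Shares and medians of fold changes over all genes, here and below, are from all 13 libraries with the deposited scaling. No gene had groups that did not overlap (2.98% of all genes had). The 95% interval of the fold change lay within 1 log2 unit of 0 at all 60 genes.

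Plxnc1, the plexin that binds Sema7a, had its summit at chromosome 10, position 94943682 (mm10, as for all positions), 1163 bp downstream of the start in the promoter table. Its control libraries read 49.6, 95.6 and 68.8, its SDS10 libraries 73.0, 137, 83.8, 103 and 96.8 and its SDS30 libraries 87.7, 67.2, 70.5, 68.4 and 108. Control replicate 1 was the lowest of the 13 libraries and SDS10 replicate 2 the highest, and the groups overlapped. The fold change of SDS10 over control was 0.48 ± 0.21 (SE; limma unadjusted p = 0.026). Leaving out control replicate 1 gave 0.25, and leaving out SDS10 replicate 2 gave 0.36. A neighbouring summit nearer the gene end, 80.1 ± 12.1 in control and 72.3 ± 20.2 in SDS10, had a fold change of the other sign, -0.18, and of its 13 summits 7 were higher and 6 lower.

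Ephb2, a receptor that gathers glutamate receptors at excitatory synapses, read 84.5, 126 and 94.0 in control, 71.4, 106, 60.2, 54.2 and 86.2 in SDS10 and 99.4, 92.2, 65.2, 71.9 and 98.5 in SDS30. SDS10 replicates 1, 3 and 4 lay below all controls, while replicates 2 and 5 lay among them. The fold change in SDS10 was -0.44 ± 0.20 (limma unadjusted p = 0.0339), -0.28 without control replicate 2, and 8 of its 12 summits were lower. In SDS30 it was -0.25 ± 0.20, with 11 of 12 summits lower. Summits near a gene are read in the same libraries and include the chosen one. Such counts, here and at other genes, are therefore not independent of its fold change. The chosen summit of Ephb2 lay at -376 bp from the listed start, upstream of it, and within 2 kb of the non-coding gene Gm31536.

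Efnb3, an ephrin ligand of EphB receptors and Epha4, read 44.0, 79.1 and 80.2 in control, 57.4, 40.9, 44.2, 42.4 and 44.7 in SDS10 and 50.1, 49.98, 50.5, 34.2 and 79.7 in SDS30. Control replicate 1 lay among the stressed libraries, while the other controls lay above all of them but SDS30 replicate 5, which lay between those controls. The fold change in SDS10 was -0.51 ± 0.24 (limma unadjusted p = 0.0409). Leaving out control replicate 1 gave -0.79, and leaving out control replicate 3 gave -0.37. In SDS30 it was -0.35 ± 0.24, and it ran from -0.63 without control replicate 1 to -0.21 without control replicate 3, with -0.22 without control replicate 2 and -0.21 without SDS30 replicate 4. As counts, 8 of 9 summits were lower in both stressed groups. The summit also lies within 2 kb of Wrap53, so the mark there cannot be given to 1 gene.

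**Figure D3:**
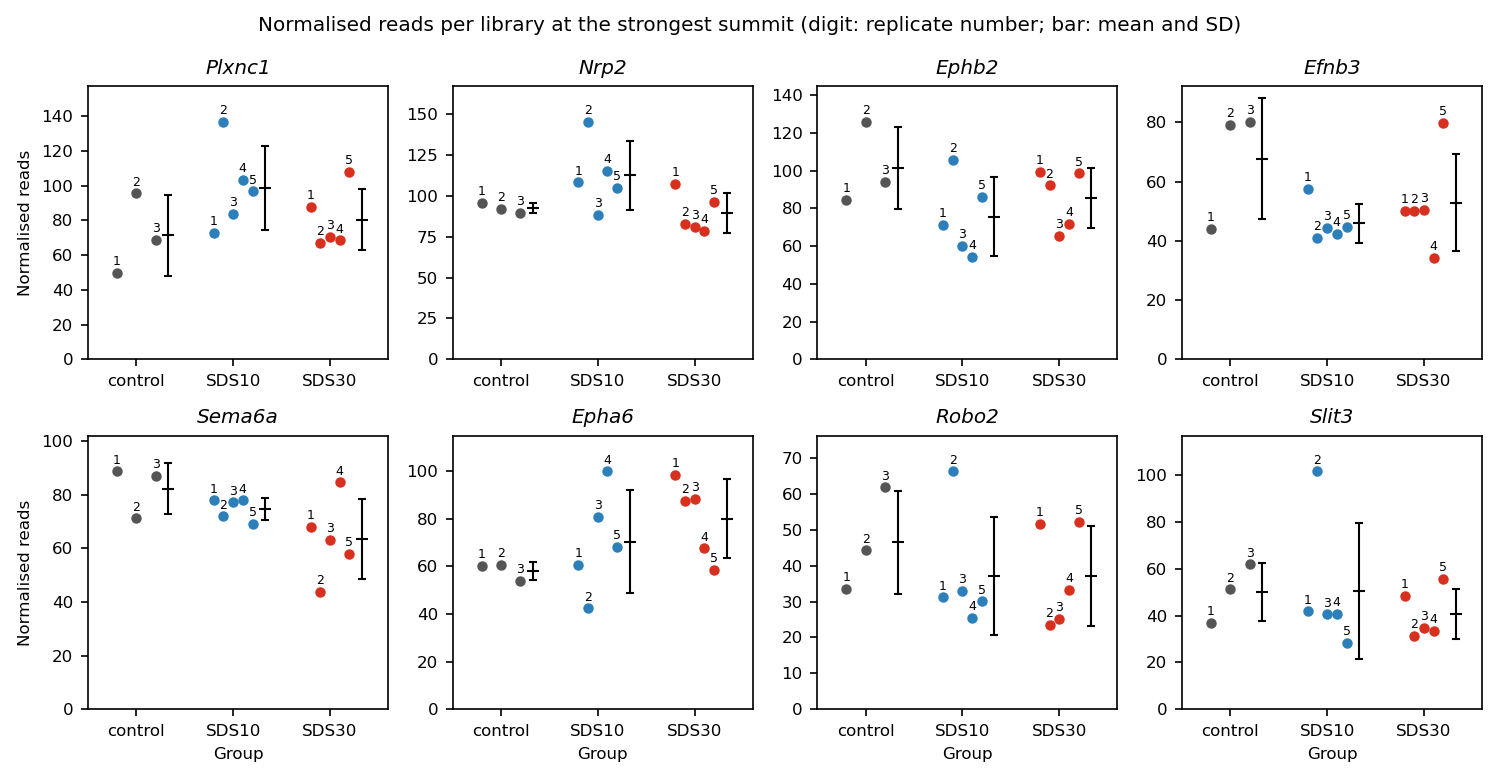
Normalised reads at the strongest summit (vertical axis) in each of the 13 libraries for 8 axon guidance genes, by group (horizontal axis), with the replicate number above each point and the mean and SD beside them. SDS10 replicate 2 is the highest point of SDS10 for Plxnc1, Nrp2, Ephb2, Robo2 and Slit3.

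The other genes named for SDS10 had larger p-values. Above control were Nrp2 (0.26 ± 0.16), Unc5c, a repulsive netrin receptor (0.26 ± 0.18), and Sema6d, a transmembrane semaphorin (0.27 ± 0.19). Below were Unc5b, a netrin receptor also known from vessels (-0.36 ± 0.26), and Sema4g (-0.30 ± 0.19). The Unc5b value rests on SDS10 replicate 2. Its SDS10 libraries read 73.8, 26.8, 71.5, 89.8 and 91.1 against 95.7, 77.3 and 80.2 in control, and the fold change was -0.05 without SDS10 replicate 2. Sema6d was 0.08 without control replicate 1, Unc5c 0.42 without control replicate 2 and 0.14 without control replicate 3 or SDS10 replicate 3, Sema4g -0.48 without control replicate 3, and Nrp2 0.17 without SDS10 replicate 2. SDS10 replicate 2 was also far above the rest of its group at Robo2, a Slit receptor of axons, and at Slit3, a secreted Slit. Robo2 read 31.2, 66.3, 32.9, 25.4 and 30.1 in SDS10 and 33.5, 44.3 and 61.9 in control, and Slit3 41.8, 102, 40.5, 40.7 and 28.5 in SDS10 and 37.0, 51.3 and 61.9 in control. The fold changes were -0.36 ± 0.30 and -0.10 ± 0.29, and -0.59 and -0.38 without that library. Leaving out control replicate 1 gave -0.57 and -0.29, and leaving out control replicate 3 gave -0.14 and 0.07.

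The second comparison sets 30 days against the same 3 control libraries, so the 2 sets of fold changes share their controls. No axon guidance gene passed (lowest limma adjusted p = 0.99998), and 0.0% of all summits did. At an unadjusted p of 0.05 limma had 5194 summits (3.41%), edgeR 4932 and DESeq2 5749, with no call by any of them. Of the 60 genes, none was higher and 1 was lower at that level (Sema6a), against 0.527% and 4.4% of all genes. Fold changes were above 0 at 20 genes and below 0 at 40, where 34.4% of all genes were above and 65.6% below. After cyclic loess scaling, for which no share over all genes is given here, they were below 0 at 36. The median was -0.11 beside -0.07 over all genes, and it ran from -0.13 to -0.06 when each library was left out. The 95% interval lay within 1 log2 unit of 0 at 58 genes, all but Epha8 and Robo4.

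Sema6a, a transmembrane semaphorin that binds Plxna2 and Plxna4, read 88.7, 71.2 and 87.1 in control, 77.9, 72.0, 77.2, 77.9 and 69.1 in SDS10 and 68.1, 43.7, 63.1, 84.7 and 58.0 in SDS30. SDS30 replicate 2 was the lowest library and replicate 4 lay among the controls. The fold change was -0.39 ± 0.19 (limma unadjusted p = 0.0425), and -0.27 without SDS30 replicate 2. The strongest summit in the gene read 125 ± 11.6, 127 ± 22.5 and 125 ± 17.1 in the 3 groups. Another summit, within 1 kb of the gene end, had a fold change of 0.23, of the other sign.

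Sema7a was the 1 gene of 60 whose control and SDS30 libraries did not overlap, against 3.78% of all genes. Its control libraries read 112, 107 and 125, its SDS30 libraries 80.7, 106, 103, 98.4 and 102 and its SDS10 libraries 139, 127, 91.3, 86.4 and 103. The gap between the lowest control and the highest SDS30 library was less than 1 normalised read, and the fold change was -0.23 ± 0.16 (limma unadjusted p = 0.163). Of its 14 summits 11 were lower in SDS30, and the SDS10 libraries spanned both groups.

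Epha6, an Eph receptor of the A class, had the largest positive fold change at 0.43 ± 0.22 (limma unadjusted p = 0.0549). It read 60.1, 60.8 and 53.9 in control, 60.7, 42.3, 81.0, 99.9 and 68.3 in SDS10 and 98.7, 87.5, 88.3, 67.6 and 58.7 in SDS30. In SDS30 4 of 5 libraries lay above all controls. This summit is at the 3' end of Epha6 beside Arl6. At the listed start of Epha6 the levels were 55.6 ± 20.4, 59.1 ± 28.1 and 55.1 ± 17.5, with a fold change of 0.01.

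The other genes named for SDS30 were Unc5c (0.26 ± 0.18), Efnb2 (0.20 ± 0.14) and Sema6d (0.23 ± 0.19) above control. Below it were Ephb3 (-0.30 ± 0.20), an ephrin-B receptor, Epha10 (-0.34 ± 0.23), an Eph receptor that lacks kinase activity, and Efnb3, given above. Without control replicate 1, Sema6d was 0.04 and Epha10 -0.51. Without control replicate 2, Unc5c was 0.42, Sema6d 0.35 and Ephb3 -0.18. Without control replicate 3, Unc5c was 0.14 and Epha10 -0.18. The summit of Epha10 also lies within 2 kb of Maneal.

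**Figure D4:**
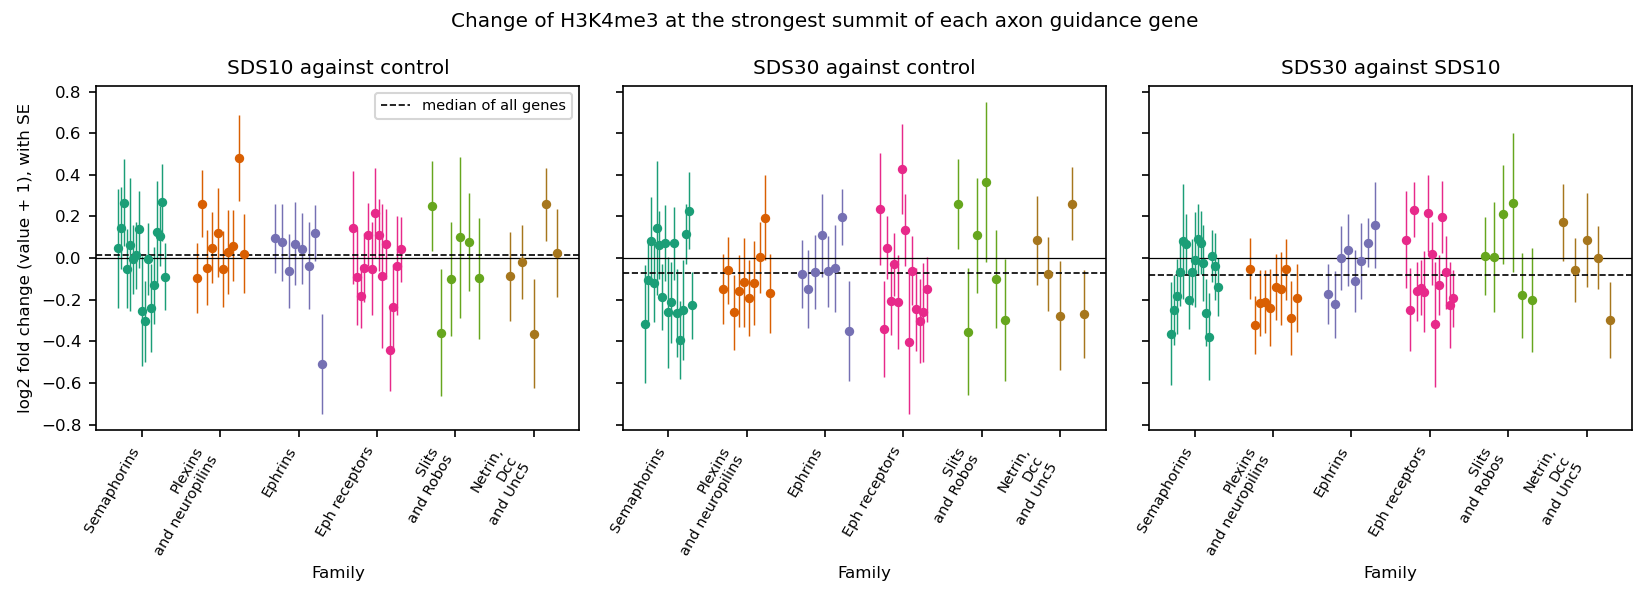
Log2 fold change of the value + 1 (vertical axis) at the strongest summit of each of the 60 axon guidance genes, by family (horizontal axis), for the 3 comparisons. Bars are the SE and the dashed line is the median of all genes, 0.01, -0.07 and -0.08, with all 10 plexins and neuropilins below 0 in the right panel.

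The third comparison sets 30 days against 10. No axon guidance gene passed (lowest limma adjusted p = 0.963), and 0.0% of all summits did. At an unadjusted p of 0.05 limma had 7795 summits (5.12%), edgeR 6857 and DESeq2 7792, with no call by any of them. Of the 60 genes none was higher and 1 was lower at that level (Nrp2), against 0.646% and 8.89% of all genes. Fold changes were above 0 at 20 genes and below 0 at 40, where 31.6% of all genes were above and 68.4% below. After cyclic loess scaling, for which no share over all genes is given here, they were below 0 at 31. The median was -0.07 beside -0.08 over all genes, and it was -0.03 without SDS10 replicate 2, with 32 of the 60 lower. No gene had groups that did not overlap (1.12% of all genes had).

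The plexins and neuropilins, the receptors of semaphorins, had a fold change below 0 at 10 of 10 genes, with a median of -0.20. This family was singled out after the values of all families were seen. The summits of Plxna1, Plxna3, Plxnb1, Plxnb2 and Nrp1 also lie within 2 kb of another gene. The changes ran from -0.32 (Nrp2) to -0.05 (Nrp1), and none passed the test. The count was 8 of 10 after cyclic loess scaling (median -0.11), 8 of 10 without SDS10 replicate 2 (-0.16), and 8 of 10 without SDS30 replicate 2 (-0.12). It was 7 of 10 when all summits of a gene were summed (-0.05). In the same comparison the striatal markers were lower at 8 of 9 genes with a median of -0.14, with summed levels of 464 to 694 in SDS10 and 423 to 599 in SDS30. The astrocyte markers were lower at 6 of 8, with summed levels of 526 to 623 and 507 to 594. Other lists were higher or split. The oligodendrocyte markers were higher at 7 of 9, the inhibitory at 5 of 7 and the endothelial and mural at 5 of 9. The excitatory markers were higher at 5 of 10 and the microglial at 2 of 4. Over all genes 68.4% were below 0, with a median of -0.08. The part of these lists was not tested. The class 3 semaphorins, ligands of these receptors, had fold changes below 0 at 4 of 4 genes and the 13 membrane semaphorins at 8. All semaphorins together were below 0 at 12 of 17 genes, the Eph receptors at 9 of 14 and the ephrins at 5 of 8. The netrin, Dcc and Unc5 genes were below 0 at 2 of 5 and the Slits and Robos at 2 of 6.

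Nrp2, the co-receptor for Sema3f, read 95.7, 92.1 and 89.4 in control, 108, 145, 88.5, 115 and 105 in SDS10 and 107, 82.8, 81.0, 78.7 and 96.4 in SDS30. SDS10 replicate 2 was the highest library, and SDS30 replicates 2, 3 and 4 lay below all SDS10 libraries. The fold change of SDS30 over SDS10 was -0.32 ± 0.14 (limma unadjusted p = 0.0269), and -0.23 without SDS10 replicate 2. A stronger summit lies 3279 bp into the gene, just outside the 2 kb window. It read 115 ± 4.54, 111 ± 15.5 and 111 ± 13.3, a fold change of 0.00 between the stressed groups.

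Below SDS10 were also Sema6b (-0.38 ± 0.21), Sema6a (-0.26 ± 0.16) and Unc5d (-0.30 ± 0.18), a netrin receptor of cortical neurons. Above it were Epha2 (0.23 ± 0.13), Epha6 (0.21 ± 0.19), Ephb2 (0.20 ± 0.17) and Dcc (0.17 ± 0.18). Sema6b read 101, 98.8, 60.2, 59.3 and 57.7 in SDS10 and 44.6, 48.4, 58.9, 49.6 and 86.2 in SDS30. Epha2 read 103, 96.0, 131, 86.4 and 113 and 122, 100.0, 129, 147 and 123. Both pairs of groups overlapped. Leaving out 1 library moved several of these values. Dcc was 0.06 without SDS10 replicate 4 and 0.09 without SDS30 replicate 1. Ephb2 was 0.33, 0.13 and 0.09 without SDS10 replicates 2, 3 and 4. Without SDS30 replicate 2, Sema6a was -0.14 and Unc5d -0.19. Epha6 was 0.05 without SDS10 replicate 2, 0.35 without SDS10 replicate 4, 0.13 without SDS30 replicate 1, and -0.06 at its listed start.

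At several of the best-known guidance genes the group means differed by less than the SD of a group. Nrp1 read 108 ± 7.70, 101 ± 15.0 and 98.9 ± 22.5 in control, SDS10 and SDS30. Plxna4 read 96.6 ± 19.0, 93.3 ± 17.9 and 84.6 ± 15.6, and Epha4 103 ± 6.12, 113 ± 16.9 and 102 ± 12.4. For Ntn1 the values were 83.2 ± 10.3, 82.1 ± 9.27 and 79.8 ± 15.7, for its receptor Dcc 69.2 ± 23.9, 63.5 ± 12.4 and 71.3 ± 12.0, and for Efna5 84.0 ± 8.01, 87.5 ± 15.6 and 80.7 ± 11.4 (SD, n = 3, 5 and 5). The interval of the SDS30 over control fold change was -0.49 to 0.20 for Nrp1, -0.35 to 0.52 for Dcc and -0.34 to 0.28 for Epha4, which are the bounds that these libraries set.

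The strongest summit is 1 of many at these genes. Over all 606 tested summits within 2 kb of them, 18 (2.97%) passed an unadjusted p of 0.05 in SDS10 against control, 7 of them higher. In SDS30 against control 20 (3.30%) did, 8 of them higher, and in SDS30 against SDS10 35 (5.78%) did, 19 of them higher. The shares over all summits were 3.21%, 3.41% and 5.12%.

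Of 58 genes that act beside or below these receptors (co-receptors, collapsin response mediators and regulators of the cytoskeleton), 55 had a summit, with a median control level of 96.8, and none passed the limma test. In SDS10 against control 27 were higher and 28 lower, where 46.5% of all genes were lower. In SDS30 20 were higher and 35 lower, where 65.6% of all genes were lower. Dpysl3, a collapsin response mediator, read 52.1 ± 9.71 in control (SD, n = 3) and 67.8 ± 5.73 in SDS10 (n = 5), and Draxin, a secreted guidance cue, 65.8 ± 10.5 and 47.7 ± 18.3. The fold changes of Dpysl3 and Draxin were 0.39 ± 0.19 and -0.54 ± 0.26 (SE; limma unadjusted p = 0.0472 and 0.0461). The control and SDS10 libraries of Dpysl3 did not overlap, as at 2.98% of all genes. In SDS30 Rac1, the GTPase that plexins and Ephs act on, read 94.3 ± 18.2 against 130.1 ± 17.3 in control. Farp2, an exchange factor in plexin signalling, read 90.2 ± 9.64 against 120.0 ± 1.79. The fold changes of Rac1 and Farp2 were -0.47 ± 0.17 and -0.42 ± 0.14 (limma unadjusted p = 0.0088 and 0.0053). The control and SDS30 libraries of Farp2 did not overlap, as at 3.78% of all genes. Fes, a kinase in plexin signalling, read 22.8 ± 14.8 in control, 28.1 ± 7.64 in SDS10 and 33.6 ± 3.45 in SDS30. Its fold change in SDS30 was 0.70 ± 0.31 (limma unadjusted p = 0.0327). The control libraries of Fes read 13.8, 14.8 and 39.8. Its SDS30 libraries ran from 29.0 to 36.8, all below the highest control, so the groups overlapped. These genes were picked from the 55 by their p-values.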

How the data were processed

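H3K4me3 ChIP-seq was measured in 13 libraries of prefrontal cortex, after micrococcal nuclease digestion per the labels' protocols; an input library was not analysed here. The deposited table gives 1 shared set of 153207 summits in 48695 regions, with a signal value per library and a score per summit from the authors, of which the score was not used because its scale is not stated. Trimmomatic, Bowtie2, MACS2 and DESeq2, with the builds mm10 and GRCm38.p5, are named per the submitters' processing notes, which in the sources used here give no versions or settings. In every library 100% of the deposited signal values were whole multiples of 1 step (tolerance 0.001 reads), so reads were recovered as value divided by step. The table had 0 value columns that matched no sample. Reads carry no molecular identifiers, so depth speaks only of counting error.

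Summits kept by the filterByExpr filter of edgeR 4.0.16 numbered 152270, and 937 were left out. The test was limma 3.58.1 (R 4.3.3) with a variance trend on log2(value + 1), 2-sided, over all 13 libraries together, with Benjamini-Hochberg adjustment over all tested summits and a threshold of 0.05. The script was tested on simulated data. Gene ends came from the RefSeq gene table. Sequences came from the RefSeq promoter table (GRCm38.p6), which matched 56 of the 66 genes. The genes and lists were chosen with earlier results of these data known. Named genes are, per comparison, those past the threshold or the 4 per direction with the smallest unadjusted p, the 4 highest and 4 lowest in control, and 10 fixed genes (Sema3a, Nrp1, Plxna4, Ntn1, Dcc, Slit1, Robo2, Epha4, Efnb2, Efna5). Of the effector list, named genes are the 2 per direction with the smallest p against control, except 1 that is not reported here. Slit2, Slit3, Robo1, Efnb1, Ephb4 and the genes singled out for a 3' summit, no summit or a stray library were named after their values were seen. Alternatives were other scalings, filters, pseudocounts (0.5 and 5), windows (1 and 5 kb), edgeR and DESeq2 1.42.0 on recovered reads, a depth covariate, a replicate block and each library left out in turn.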

Additional observations from a re-analysis of the deposited data

Results flagged for a closer look

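Of 120 groups of 5 libraries (60 genes, SDS10 and SDS30), 10 had 1 library set far from the other 4, where chance flags about 1 in 20 groups. In SDS10 replicate 2 these were Robo2 (66.3 normalised reads, the others 25.4 to 32.9), Slit3 (102, the others 28.5 to 41.8), Sema6c (128, the others 97.0 to 103) and Ephb4 (31.1, the others 60.98 to 67.8). Elsewhere in SDS10 they were Efnb3 in replicate 1 (57.4, the others 40.9 to 44.7) and Sema4b in replicate 4 (132, the others 81.9 to 96.0). In SDS30 replicate 1 they were Epha5 (114, the others 52.6 to 68.8) and Ephb6 (115, the others 83.8 to 92.5). The remaining flags in SDS30 were Efna2 in replicate 4 (52.2, the others 77.5 to 84.6) and Robo3 in replicate 5 (65.2, the others 37.5 to 44.5). What sets these libraries apart was not tested.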

How the results depend on the processing

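In every alternative run, limma, edgeR and DESeq2 made 0 calls in each comparison. The median fold change of the 60 genes ran, with each library left out, from -0.04 to 0.06 (SDS10 against control), -0.13 to -0.06 (SDS30 against control) and -0.14 to -0.03 (SDS30 against SDS10). With the replicate block the medians were 0.02, -0.09 and -0.07, again with 0 calls. Whether libraries with the same replicate number share more than that number is not in the labels. The deviations of 11 such pairs correlated from -0.29 to 0.37, with 3 over 0.1. The 44 other pairs ran from -0.43 to 0.38, with 15 over 0.1. Signs turned at single genes, where the cause was not tested. With the window at 5 kb or over the whole gene, Nrp2 was -0.0665 in SDS10 and 0.00158 between the stressed groups, and with 5 kb Epha6 was -0.239 between them. With 1 kb, Plxnc1 in SDS10 was -0.175 and Sema6a in SDS30 0.227. At a listed start, Epha6 between the stressed groups was -0.0563 and Robo2 in SDS10 0.218, as over the whole gene. Summed over all summits, Slit3 in SDS10 was 0.0352, Efnb2 and Sema6a in SDS30 -0.00953 and 0.00247, and Ephb2 and Sema6b between the stressed groups -0.0238 and 0.00792. Slit3 in SDS10 was 0.00285 with the replicate block and 0.00142 with DESeq2, and it ran from -0.38 to 0.0703 with each library left out. The whole-gene and listed-start windows were chosen after seeing the data. With 7 to 209 reads behind a value, the median 95% half-width of a fold change was 0.40 against control and 0.34 between the stressed groups.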
